A study of Mus musculus with 15 samples.

Results

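The Zfp genes are the mouse genes whose symbol is Zfp followed by a number, for zinc finger protein, and they were taken by that name from the deposited table, which gave 268 members of 12763 genes. RNA was measured in fibroblasts of wild-type (WT) male mice, labelled CD45-EpCAM+CD34+CD31-PDGFRalpha+ and sorted from the thymus 1 day or 3 days after sublethal irradiation with 425 rad, or from untreated mice. Each of the 3 groups had 5 libraries of the MARS-seq type, in which polyadenylated RNA is read at its 3' end and molecules are told apart by unique molecular identifiers (UMIs). The labels give no age and name no animal behind a library, so the tests rest on the variation among libraries, which may be technical.

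A C2H2 zinc finger is a small fold held by zinc, and a row of such fingers reads a stretch of DNA. Many Zfp genes lie in tandem arrays and also encode a KRAB box, which binds TRIM28, and TRIM28 brings the histone methyltransferase SETDB1, HP1 proteins and the NuRD complex to silence the bound DNA, most often a retroelement. Other Zfp genes share only the name: the Zfp36 family binds AU-rich elements in mRNA with CCCH fingers and speeds decay of the message. A fibroblast thus holds under this name repressors of retroelements, factors of cell fate and chromatin, and proteins that act on RNA.

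The proteins were classed from the coding sequences of GENCODE vM21, to which 267 of the 268 symbols were matched. A KRAB box was found in 133 members, with a median of 12 C2H2 fingers, and none was found in 131 members, with a median of 7. The remaining 4 had no coding sequence to read: Zfp33b, Zfp469, Zfp652os and Zfp862-ps. On mouse chromosomes, 64 members lay on chromosome 7, 36 on chromosome 17, 21 on chromosome 13 and 19 on chromosome 8. For 127 members at least 3 other Zfp genes lay within 500 kb.

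Promoter windows in RefSeq (GRCm38.p6; 250 bases before to 50 after a gene start) were found for 221 of the 268 members, in 275 windows, and 10 motifs were searched on both strands. One of them, CTACANNTC, is the core of a longer site bound by ZFP143, itself a member, and by THAP11. It was in 15.6% of Zfp windows, in 22.1% of windows of KRAB members and in 9.42% of windows of the members without KRAB, against 5.72% of windows of all genes in the table and 4.2% of all 32851 windows. Of the windows of Zfp genes that fell after irradiation, 3 of 30 held this core for the falls at day 1 and 3 of 23 for those at day 3, or 10% and 13%. For Zfp genes that rose it was in 2 of 21 windows at day 1, or 9.52%, and in 1 of 1 at day 3. The core was thus not more frequent in windows of falls than in Zfp windows as a whole. The core can share letters with the ETS-type motif CCGGAAGT, which was in 8.36% of Zfp windows, 7.44% of windows of all genes in the table and 3.89% of all windows. GAAANNGAA, an interferon-response type of element, was in 5.45%, 7.07% and 8.56% of the same 3 kinds of window. In the same order the shares were 45.1%, 36.8% and 37.4% for CCAAT, 5.82%, 7.53% and 13.6% for TATAAA, 2.91%, 2.89% and 1.79% for TGACGTCA, and 5.45%, 4.78% and 2.71% for GCATGCGC. They were 3.27%, 2.76% and 1.4% for AAGATGGCG, 0.364%, 0.619% and 0.323% for TTTCGCGC, and 2.55%, 1.97% and 0.995% for TCTCGCGA. Mean GC content was 57.8% in Zfp windows, 60.6% in windows of all genes in the table and 53.8% in all windows, and a match of letters is a description, not a bound site.

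The 4 windows below are shown because each holds that core, in capitals on its reverse strand, ahead of the start of a gene that had lower levels after irradiation. Zfp74, Zfp260 and Zfp146 are neighbours in 1 array on chromosome 7, and Zfp180 lies elsewhere on the same chromosome; they were picked after their values were seen. Their windows are chr7:29954016-29954315 (minus strand), chr7:30094826-30095125 (plus strand), chr7:30169692-30169991 (minus strand) and chr7:24081647-24081946 (plus strand). Counted from the start at 0, the first capital stands at -49 in Zfp74, -27 in Zfp260, -128 in Zfp146 and -21 in Zfp180.
Zfp74: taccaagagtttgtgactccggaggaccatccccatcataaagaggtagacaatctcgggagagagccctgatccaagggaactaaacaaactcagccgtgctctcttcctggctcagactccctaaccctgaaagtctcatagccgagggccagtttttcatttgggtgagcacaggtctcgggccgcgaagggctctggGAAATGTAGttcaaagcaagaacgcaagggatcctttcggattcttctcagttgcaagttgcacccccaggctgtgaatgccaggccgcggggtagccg
Zfp260: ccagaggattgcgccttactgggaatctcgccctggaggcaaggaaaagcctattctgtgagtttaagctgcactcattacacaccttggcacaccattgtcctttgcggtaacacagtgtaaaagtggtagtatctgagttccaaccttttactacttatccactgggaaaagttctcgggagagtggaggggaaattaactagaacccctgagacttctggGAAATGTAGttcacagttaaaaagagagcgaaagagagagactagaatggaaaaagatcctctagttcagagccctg
Zfp146: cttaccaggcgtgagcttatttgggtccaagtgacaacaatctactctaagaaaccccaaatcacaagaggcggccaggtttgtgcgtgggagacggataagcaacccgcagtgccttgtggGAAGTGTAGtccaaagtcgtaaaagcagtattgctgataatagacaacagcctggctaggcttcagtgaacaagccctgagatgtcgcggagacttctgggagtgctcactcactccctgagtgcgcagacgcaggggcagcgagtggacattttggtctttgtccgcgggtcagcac
Zfp180: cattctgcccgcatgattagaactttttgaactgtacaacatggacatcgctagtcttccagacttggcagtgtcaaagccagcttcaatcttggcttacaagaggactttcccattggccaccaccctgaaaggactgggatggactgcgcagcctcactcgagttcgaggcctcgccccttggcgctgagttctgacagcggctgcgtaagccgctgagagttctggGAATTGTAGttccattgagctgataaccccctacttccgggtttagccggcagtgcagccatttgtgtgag

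Library totals ran from 740169 to 2638344 UMIs at day 1, from 1967148 to 3750214 at day 3 and from 1102176 to 2661621 in untreated samples. Day 1 replicate 1 was the smallest library and stood apart for several members. The sort label names EpCAM as positive, yet Epcam had 10 UMIs over the day 1 libraries, 10 at day 3 and 11 in untreated samples, while Pdgfra averaged, in CPM (UMIs of a gene scaled to its library's total, with TMM factors), 111.4 ± 29.9 at day 1, 193.3 ± 29.7 at day 3 and 310.2 ± 40.2 in untreated samples (SD, n = 5 each). Summed levels of 8 fibroblast markers ranged from 10670 to 26000 CPM at day 1, from 36450 to 44520 CPM at day 3 and from 43090 to 49960 CPM in untreated libraries. For 10 macrophage markers the ranges were 238.1 to 440.9 CPM at day 1, 44.9 to 86.9 CPM at day 3 and 34.3 to 262.0 CPM in untreated libraries, with Fcgr1 at 0 at day 3. For 7 mesothelial markers they were 448.8 to 2904 CPM at day 1, 322.9 to 1391 CPM at day 3 and 112.2 to 387.9 CPM in untreated libraries. The part of these shifts in the Zfp results was not tested, and in bulk samples fewer cells of a type and less RNA per cell cannot be told apart.

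Most Zfp genes were rare messages. Levels in CPM are not divided by length because each UMI marks a 3' end. The median member had 4.65 CPM over the 15 libraries, against 15.1 CPM for all genes in the table, and 139 members were under 5 CPM, 93 between 5 and 20, and 36 at 20 CPM or more. Members with KRAB had a median of 2.68 CPM, and those without had a median of 9.48 CPM. A filter on low counts left 161 members to be tested and set 107 aside, none of them above 3.58 CPM on average. It kept 54 of 133 members with KRAB and 104 of 131 without. It removed 39.9% of Zfp genes, beside 2556 of the 12763 genes in all.

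A few abundant members carried most of the signal: the 8 highest held 61.8% of the 193636 Zfp UMIs. Zfp36, which encodes the mRNA decay factor tristetraprolin, was the highest. Zfp36 had 1263, 1835, 2536, 2493 and 2292 CPM in the day 1 libraries, 1885, 2210, 2482, 2745 and 2893 CPM at day 3, and 2030, 1977, 2032, 1338 and 2222 CPM in untreated libraries. The 3 groups overlapped, and neither day passed the test against untreated samples (log2 change 0.12 ± 0.19 SE, adjusted p = 0.625, at day 1 and 0.35 ± 0.19, adjusted p = 0.214, at day 3; edgeR's quasi-likelihood test with Benjamini-Hochberg adjustment over 10207 genes, used throughout with a threshold of 0.05). Zfp36l1, a second decay factor of the family, had 600.9, 563.9, 591.8, 658.3 and 636.5 CPM at day 3, against 301.1, 456.6, 421.9, 339.2 and 354.1 CPM in untreated libraries. All day 3 libraries were above all untreated ones, though the log2 change of 0.70 ± 0.25 missed the threshold (adjusted p = 0.0553). It passed in DESeq2 (adjusted p = 0.0355) and in a fit of the compared groups alone (adjusted p = 0.000209), and had an adjusted p of 0.118 under total-count scaling. At day 1 replicate 1 had 121.3 CPM and the others 388.3 to 524.3 CPM, and without that replicate Zfp36l1 was called higher at day 1 (log2 change 0.37, adjusted p = 0.0328), against 0.13 and 0.694 with it. The third, Zfp36l2, averaged 6.02 ± 3.12 CPM at day 1, 6.69 ± 0.94 CPM at day 3 and 4.92 ± 1.93 CPM in untreated samples (SD, n = 5 each) and was not called. Next in level were Zfp385a, a partner of p53 in cell cycle arrest, at 181.4 ± 21.4, 205.9 ± 14.4 and 215.8 ± 27.3 CPM in the same 3 groups, and Zfp503, a corepressor, at 87.1 ± 9.9, 97.3 ± 12.4 and 85.3 ± 28.2 CPM, and neither was called on either day.

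One day after irradiation, 20 Zfp genes rose and 28 fell among the 161 tested, and 113 did not pass. These were 12.4% higher and 17.4% lower, against 23.1% of all tested genes called higher and 23.1% called lower, so Zfp genes were called in either direction in 29.8% of cases beside 46.2% of all genes. With libraries scaled by their totals alone, 13 Zfp genes rose and 53 fell, beside 14.7% of all genes called higher and 35.8% called lower, with the median of all genes at -0.29. Without day 1 replicate 1, 22 of 172 Zfp genes rose and 26 fell, beside 2445 and 2383 of all 10353 genes. Zfp148, Zfp422, Zfp423, Zfp518b and Zfp944 were then no longer called. The median log2 change was -0.06 for Zfp genes and -0.02 for all genes. Groups did not overlap for 25 Zfp genes, 15.5% of those tested, beside 27.6% of all genes.

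The rises reached at most 1.18 on the log2 scale. Zfp579, which encodes C2H2 fingers without a KRAB box, had 53.5, 47.1, 71.4, 53.4 and 36.8 CPM at day 1, against 28.1, 24.2, 16.6, 26.2 and 22.6 CPM in untreated libraries. Every day 1 library was above every untreated one, and the log2 change was 1.18 ± 0.20 (adjusted p = 4.72e-05). Zfp809, a KRAB protein that recognises the primer binding site of integrated retroviruses, had 12.6, 27.9, 17.4, 30.2 and 19.7 CPM at day 1, against 10.2, 10.5, 12.6, 7.39 and 10.6 CPM in untreated libraries. Its groups touched without overlapping, with the lowest day 1 value in replicate 1, and its log2 change was 1.13 ± 0.22 (adjusted p = 0.000277). Zfp703, a corepressor of the NET family that lacks the C2H2 spacing searched here, had 333.9, 157.5, 142.5, 134.1 and 163.4 CPM at day 1, against 103.8, 80.0, 88.1, 103.4 and 81.3 CPM in untreated libraries. Again no value overlapped, replicate 1 was far above the other day 1 libraries, and the log2 change was 1.00 ± 0.22 (adjusted p = 0.000889). The other large rises were Zfp970 at 1.14, Zfp691 at 1.12, Zfp593 at 1.08, Zfp710 at 1.01 and Zfp428 at 1.00 on the log2 scale. Zfp593 is related to a yeast factor of large ribosomal subunit maturation. In Zfp970, 50.5% of the 40-base words in the last 1000 bases of the transcript also occur in Zfp966 and Zfp967, so its reads may be shared with them.

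The falls reached -2.29, in Zfp704. Zfp704 had 0, 1.75, 2.83, 0.990 and 1.97 CPM at day 1, against 3.40, 9.70, 10.1, 8.73 and 10.2 CPM in untreated libraries. No value overlapped, and the log2 change was -2.29 ± 0.38 (adjusted p = 4.47e-05). Zfp354c, a KRAB gene whose rat counterpart represses bone-forming genes, had 1.58, 7.42, 5.65, 3.96 and 8.53 CPM at day 1, against 11.1, 24.2, 18.4, 27.5 and 19.6 CPM in untreated libraries. All day 1 libraries lay below all untreated ones (log2 change -1.81 ± 0.29, adjusted p = 3.74e-05). Zfp449, which has a SCAN domain, a box for pairing between such proteins, had 1.58, 2.18, 0.404, 2.97 and 3.94 CPM at day 1, against 9.36, 8.89, 7.19, 8.397 and 8.94 CPM in untreated libraries. Its groups were also apart, with a log2 change of -1.95 ± 0.37 (adjusted p = 0.000206). Zfp592, part in human cells of a chromatin complex with ZNF687 and ZNF532, averaged 3.96 ± 1.56 CPM at day 1 and 11.8 ± 3.18 CPM in untreated samples (SD, n = 5 each), with a log2 change of -1.50 ± 0.26 (adjusted p = 6.81e-05). The KRAB gene Zfp160 (-2.07), and Zfp68 (-1.44), Zfp800 (-1.38) and Zfp943 (-1.30), completed the 8 largest falls on the log2 scale.

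**Figure D1:**
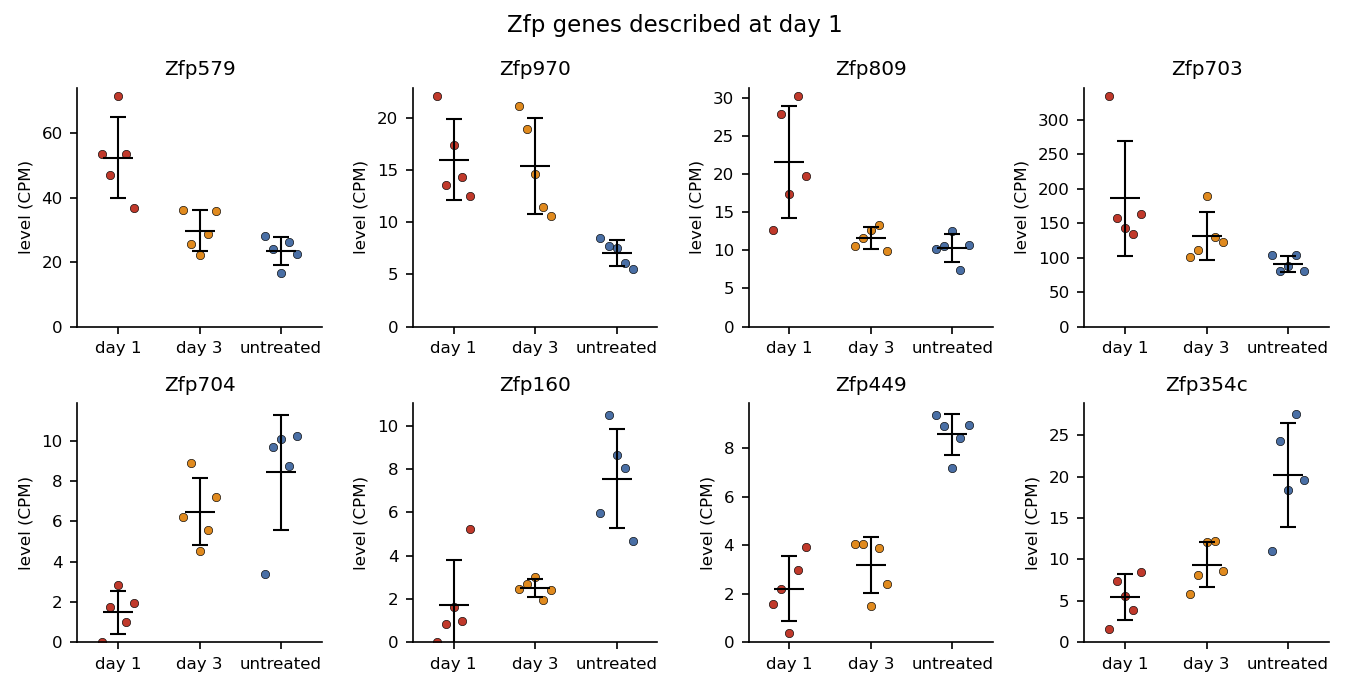
Level in CPM (y axis, from 0) of 8 Zfp genes in each library, by group (x axis), with the mean and SD of 5 libraries as a bar. In the top panels the day 1 libraries of Zfp579, Zfp970, Zfp809 and Zfp703 lie above all untreated ones; in the bottom panels those of Zfp704, Zfp449 and Zfp354c lie below all untreated ones, and 1 day 1 library of Zfp160 at 5.25 CPM reaches into the untreated range.

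At day 3 the calls were mostly falls. Of the 161 members tested, 2 rose and 21 fell, which is 1.24% higher and 13% lower, beside 9.2% of all tested genes called higher and 9.25% called lower. The log2 change was negative in 113 members and positive in 48, with a median of -0.17, against -0.01 for all genes. Because rare genes as a whole also moved down, the same was counted among genes under 20 CPM: 14.4% of such Zfp genes fell and 1.6% rose, with a median of -0.29, beside 10.9% lower, 6.73% higher and a median of -0.10 for all genes under 20 CPM. Groups did not overlap for 19 Zfp genes, 11.8% of those tested, beside 15% of all genes. This comparison and that of day 1 share the untreated libraries.

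The day 3 falls came from several roles. Zfp46 had 11.5, 11.1, 12.6, 18.9 and 14.4 CPM at day 3, against 26.4, 30.3, 34.9, 28.6 and 37.0 CPM in untreated libraries. The groups were far apart, and the log2 change of -1.20 ± 0.19 had the smallest adjusted p of any member at day 3 (0.00017). Zfp281, which represses pluripotency genes with the NuRD complex in embryonic stem cells, had 1.55, 3.24, 3.03, 3.06 and 3.77 CPM at day 3, against 6.81, 10.1, 9.71, 6.72 and 7.24 CPM in untreated libraries. No value overlapped (log2 change -1.47 ± 0.31, adjusted p = 0.00217), while at day 1 it averaged 9.97 ± 4.21 CPM, against 8.11 ± 1.65 CPM in untreated samples, and was not called (SD, n = 5 each; adjusted p = 0.39). Zfp445, a KRAB protein that guards imprinted DNA methylation, had 17.4, 20.2, 24.2, 15.6 and 11.3 CPM at day 3, against 23.0, 35.6, 42.5, 30.2 and 27.7 CPM in untreated libraries. Only the highest day 3 value passed the lowest untreated one, and the log2 change was -0.87 ± 0.22 (adjusted p = 0.00974). The other large falls were Zfp160 at -1.62, Zfp800 at -1.43, Zfp449 at -1.34, Zfp944 at -1.20, Zfp267 at -1.17 and Zfp354c at -1.15 on the log2 scale. The call of Zfp944 was lost without untreated replicate 1 or 5 or day 3 replicate 2 or 5 (adjusted p up to 0.0737).

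The 2 rises at day 3 were Zfp970 and Zfp865. Zfp970 averaged 15.3 ± 4.58 CPM at day 3 and 7.06 ± 1.23 CPM in untreated samples (SD, n = 5 each), with a log2 change of 1.14 ± 0.23 (adjusted p = 0.00186), under the same limit of shared sequence. Zfp865 averaged 8.88 ± 1.53 CPM at day 3 and 5.27 ± 2.46 CPM in untreated samples (SD, n = 5 each), with a log2 change of 0.86 ± 0.25 (adjusted p = 0.0199). It overlaps Ccdc106 on the same strand, and its call was lost without day 3 replicate 1, untreated replicate 2 or untreated replicate 4, which leaves 1 rise.

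**Figure D2:**
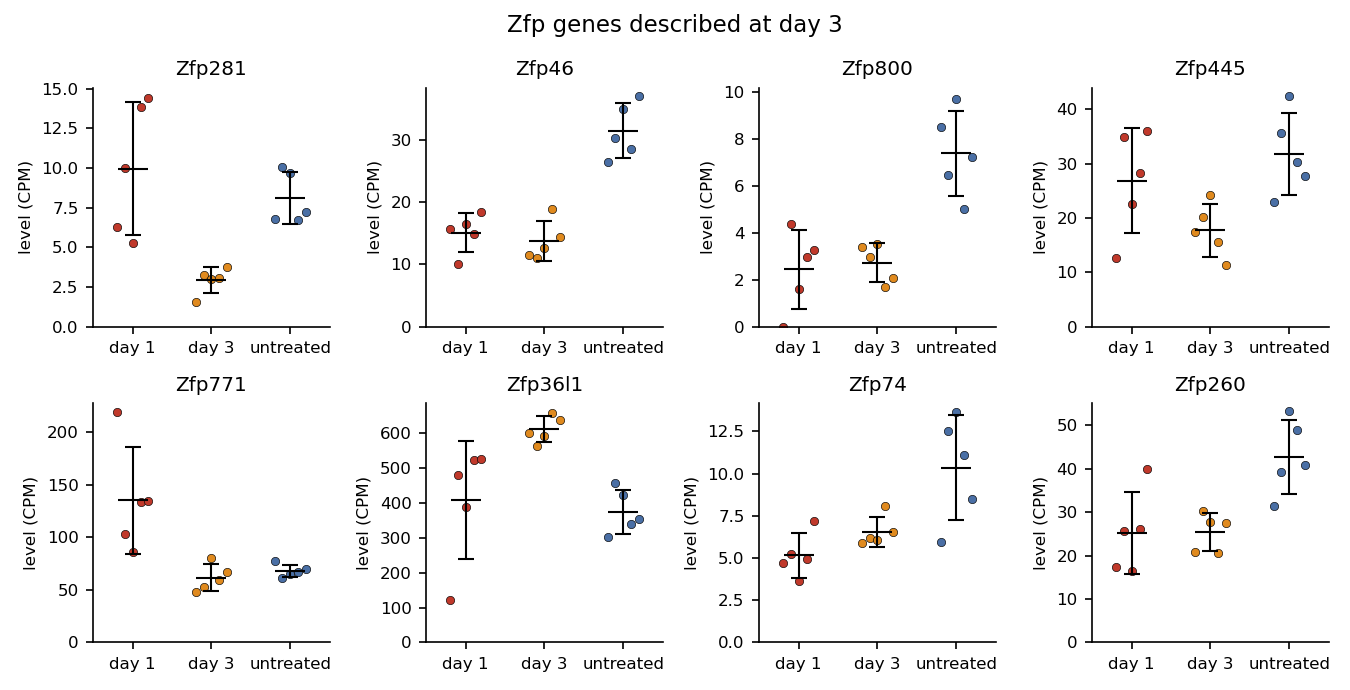
Level in CPM (y axis, from 0) of 8 Zfp genes in each library, by group (x axis), with the mean and SD of 5 libraries as a bar. Zfp281, Zfp46, Zfp800 and Zfp260 lie lower in all day 3 libraries than in all untreated ones, Zfp36l1 lies higher, Zfp771 is high at day 1 alone, and for Zfp445 and Zfp74 the day 3 and untreated groups overlap.

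Split by the encoded protein, 11 of the 21 falls at day 3 were KRAB members. Of the 54 KRAB members tested, 11 fell and 1 rose at day 3, which is 20.4% lower beside 9.25% of all tested genes, and 47 of the 54 log2 changes were negative, with a median of -0.46. Of the 104 tested members without KRAB, 10 fell and 1 rose, or 9.62% lower, with a median of -0.07. Rises were few in both classes at day 3, at 1.85% with KRAB and 0.962% without, beside 9.2% of all genes. At day 1, 12 KRAB members fell and 4 rose (median -0.35), or 22.2% lower and 7.41% higher, and 16 members without KRAB fell and 16 rose (median 0.06), or 15.4% in each direction, beside 23.1% of all genes in each direction. The share of KRAB falls at day 1 was thus near that of all genes. Scaled by library totals alone, 21 KRAB members fell and 2 rose at day 1, and 31 members without KRAB fell and 11 rose, beside 35.8% lower and 14.7% higher of all genes. The KRAB members that fell at day 3 were Zfp160, Zfp267, Zfp354c, Zfp382, Zfp426, Zfp445, Zfp74, Zfp869, Zfp871, Zfp943 and Zfp944. Single libraries decided several of these calls: the call was lost without any of 8 libraries for Zfp426, 7 for Zfp74, 6 for Zfp869, 4 for Zfp944, 3 for Zfp943 and 1 for Zfp382. The difference between the classes was not tested, since the split was made with earlier results known. The 2 classes also differ in level and in number of fingers, and other splits gave a like pattern at day 3. Of 64 tested members with 10 or more C2H2 fingers 14 fell (21.9%, median -0.425), beside 7 of 85 with 1 to 9 fingers (8.24%, median -0.11). Of 66 with at least 3 other Zfp genes within 500 kb 11 fell (16.7%, median -0.40), beside 10 of 94 with fewer (10.6%, median -0.11). These splits share members and were not told apart. Leaving out 1 library at a time gave 7 to 12 KRAB falls at day 3 and 8 to 16 at day 1. The lowest counts came without untreated replicate 3, at 7 and 8 of 55 tested, beside 649 and 2110 of all 10220 genes. The highest were 12 of 58 without day 3 replicate 4 (all genes 718 of 10273) and 16 of 61 without day 1 replicate 5 (2345 of 10372). Without day 1 replicate 1 the day 1 count was 14 of 63 tested, beside 2383 of all 10353 genes.

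Summed over all 133 members, tested or not, KRAB genes reached 505.0, 515.3, 494.9, 506.2 and 465.1 CPM at day 3, against 674.6, 707.1, 733.8, 729.9 and 631.6 CPM in untreated libraries. All 5 day 3 libraries lay below all 5 untreated ones, and the means were 497.3 ± 19.4 CPM at day 3 and 695.4 ± 42.7 CPM in untreated samples (SD, n = 5 each). The 79 KRAB members under the filter showed the same order on their own, with 122.8 ± 3.83 CPM at day 3 and 187.3 ± 22.0 CPM in untreated samples (SD, n = 5 each), again without overlap. The sum of all 107 members under the filter, with KRAB or without, also fell without overlap, from 256.7 ± 32.1 CPM in untreated samples to 170.0 ± 4.49 CPM at day 3. Those 107 include the 79 KRAB members, which held most of the sum, and members without KRAB under the filter were not summed apart. Whether this order under the filter is particular to KRAB members was therefore not tested. At day 1 the KRAB sums were spread widely, at 377.9, 631.1, 477.1, 568.5 and 721.1 CPM. They overlapped the untreated values through replicate 5, and replicate 1 was lowest. As a share of all UMIs, without TMM, the KRAB sum was 0.0499% at day 3 (range 0.0461% to 0.0516%), 0.0504% at day 1 (0.0324% to 0.0676%) and 0.0758% in untreated libraries (0.0686% to 0.0816%). On this scale neither day overlapped the untreated group, though day 1 came close to it. With libraries scaled by their totals, the median log2 change of all genes was also below 0, at -0.29 at day 1 and -0.13 at day 3.

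The sums of members without KRAB turned on the Zfp36 family. Without Zfp36, their 130 genes summed to 2683 ± 136 CPM at day 1, 2582 ± 68.0 CPM at day 3 and 2452 ± 46.7 CPM in untreated samples (SD, n = 5 each), with all libraries of both days above all untreated ones. That order needed Zfp36l1 on both days: without it as well, the other 129 genes summed to 2276 ± 239 CPM at day 1, 1972 ± 72.4 CPM at day 3 and 2077 ± 80.8 CPM in untreated samples (SD, n = 5 each), with both days overlapping the untreated range. At day 3 their mean was then below that of untreated samples. The direction for the 130 genes also depended on the scaling: as a share of all UMIs the means were 0.242% at day 1, 0.259% at day 3 and 0.267% in untreated samples. The whole name group summed to 5356 ± 582 CPM at day 1, 5549 ± 433 CPM at day 3 and 5097 ± 313 CPM in untreated samples (SD, n = 5 each), a sum that Zfp36 dominates. With every library thinned to 740169 UMIs, 221 ± 21.1 members had at least 1 UMI at day 1, 228.4 ± 3.78 at day 3 and 246.8 ± 5.12 in untreated samples (SD, n = 5 each). The day 3 range of 223 to 232 lay below the untreated range of 238 to 251. The thinning was a single random draw, and the thinned count was not made for all genes. Rare genes as a whole also moved down at day 3, so this range is not shown to be particular to Zfp genes.

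**Figure D3:**
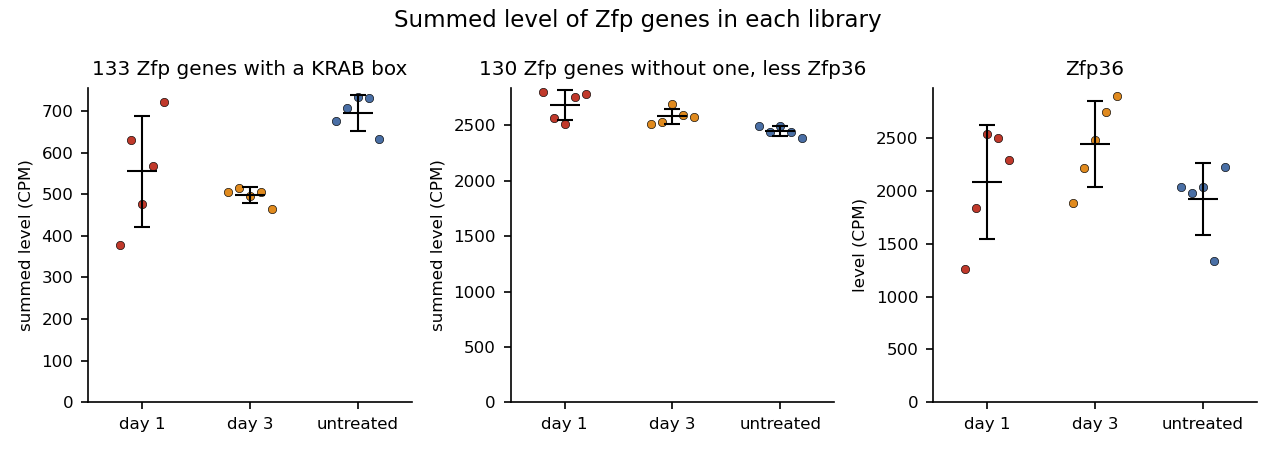
Summed level in CPM (y axis, from 0) of the Zfp genes with a KRAB box, of those without one apart from Zfp36, and of Zfp36 alone, in each library by group (x axis), with the mean and SD of 5 libraries as a bar. The KRAB sums of day 3, at 465.1 to 515.3 CPM, lie below those of the untreated libraries at 631.6 to 733.8 CPM. The sums without KRAB lie above the untreated ones on both days on this TMM scale, but overlap them on both days without Zfp36l1. They have lower means on both days as a share of all UMIs.

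**Figure D4:**
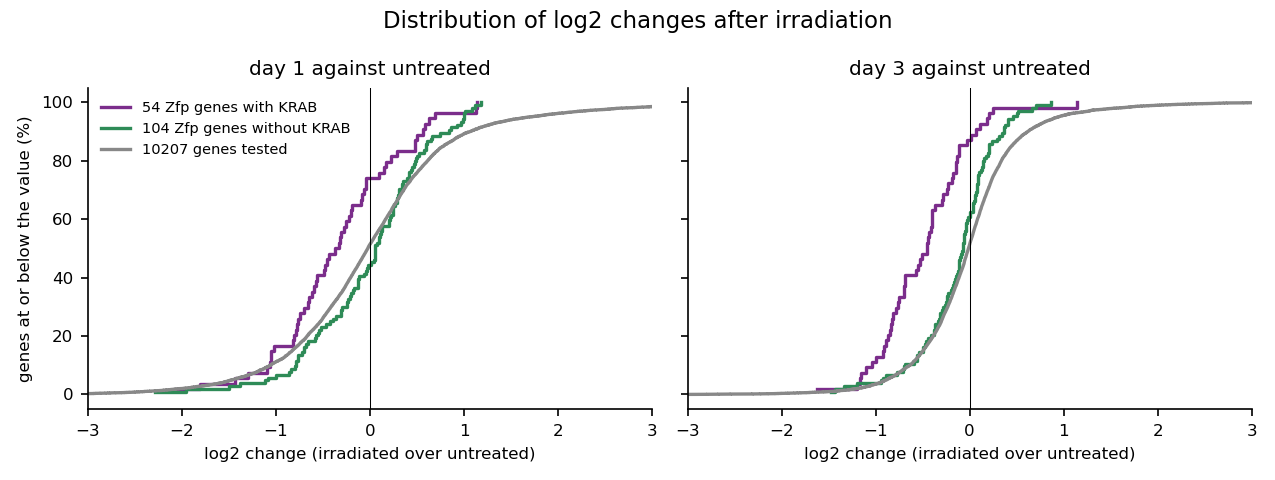
Cumulative percent of genes (y axis) at or below each log2 change (x axis, irradiated over untreated) for tested Zfp genes with KRAB, tested Zfp genes without KRAB and all 10207 tested genes, at day 1 on the left and day 3 on the right. The KRAB curve is shifted left, to a median of -0.35 at day 1 and -0.46 at day 3. The medians of members without KRAB are 0.06 and -0.07, against -0.02 and -0.01 for all genes. At day 3 0.962% of the members without KRAB were called higher, against 9.2% of all genes.

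An array on chromosome 7 holds 14 members, KRAB genes and others, between positions 29768552 and 30169750 (GRCm38). Of them 7 were tested, all 7 had a negative log2 change at day 3, and 4 fell: Zfp74, Zfp260, Zfp382 and Zfp146. Of all 10207 tested genes 5240 had a negative log2 change at day 3 and 9.25% fell, and the array was singled out after its values were seen. Negative changes were also common in like Zfp genes, so they were not particular to this array. They were in 47 of 54 tested KRAB members (11 fell) and 50 of 66 with at least 3 Zfp genes within 500 kb (11 fell). Both of these sets include members of the array. By chromosome, negative changes were in 15 of 18 on chromosome 17 (4 fell), 7 of 8 on chromosome 13 (0 fell) and 8 of 14 on chromosome 8 (1 fell). On chromosome 7 itself they were in 23 of 35, and the 4 that fell there were those of the array. Zfp260, a transcription factor studied in rat heart muscle, had 20.8, 30.2, 27.8, 20.6 and 27.4 CPM at day 3, against 31.5, 39.2, 53.2, 49.0 and 40.9 CPM in untreated libraries. All its day 3 values were below all untreated ones (log2 change -0.77 ± 0.20, adjusted p = 0.0101). Zfp74 had 5.90, 6.21, 6.05, 8.08 and 6.52 CPM at day 3, against 5.95, 12.5, 13.7, 11.1 and 8.51 CPM in untreated libraries. Untreated replicate 1 fell among the day 3 values, and the log2 change was -0.70 ± 0.23 (adjusted p = 0.036), with up to 0.124 over its alternatives. Zfp146 changed by -0.70 ± 0.19 (adjusted p = 0.0116) and Zfp382 by -1.11 ± 0.30 (adjusted p = 0.0135), a call lost without untreated replicate 3 (adjusted p = 0.0632). At day 1 Zfp74 (-1.07), Zfp260 (-0.77) and Zfp382 (-1.05) also fell on the log2 scale, as did Zfp180 (-0.76), whose window is printed with theirs.

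The role lists show where single members moved, and their counts stand beside 23.1% of all genes called in each direction at day 1, and 9.2% called higher and 9.25% lower at day 3. Of 6 members known for control of retroelements or imprints, Zfp809 rose at day 1 and Zfp445 fell at day 3, and the other 4 were under the filter. Among these, Zfp57, which keeps methylation at imprinted regions, had 1, 4, 9, 5 and 3 UMIs in the day 1 libraries, 1, 2, 2, 3 and 2 UMIs at day 3, and 0, 0, 0, 0 and 1 UMIs in untreated libraries. It was detected in all irradiated libraries and in 1 untreated one, and in a fit with no filter it had an adjusted p of 0.00021 at day 1 and 0.0753 at day 3 by edgeR. Zfp708, which silences a class of endogenous retrovirus, went the other way, with 0, 0, 1, 1 and 1 UMIs at day 1, 1, 4, 1, 1 and 1 UMIs at day 3, and 2, 5, 7, 10 and 3 UMIs in untreated libraries (adjusted p = 0.00441 at day 1 and 0.0163 at day 3, edgeR with no filter). All of the 40-base words at its 3' end also occur in other annotated genes, so these UMIs are uncertain. With no filter, 2 of the 107 low members were called higher and 14 lower at day 1, and 1 higher and 6 lower at day 3. Of all 2556 genes under the filter, 15.5% were called higher and 11.2% lower at day 1 in that fit, and 3.79% higher and 5.95% lower at day 3.

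Of 7 members tied to cell fate, Zfp703 and Zfp467 rose at day 1 and Zfp423 fell, and none was called at day 3 by edgeR or DESeq2, with 1 of the 7, Zfp703, at an unadjusted p under 0.05. Zfp703 was called higher at day 3 in a fit of the compared groups alone (adjusted p = 0.0124), and Zfp503 without untreated replicate 1 (adjusted p = 0.0437). Zfp467, which steers marrow stroma toward fat cells, averaged 51.9 ± 6.12 CPM at day 1 and 28.9 ± 8.43 CPM in untreated samples (SD, n = 5 each), without overlap (log2 change 0.87 ± 0.17, adjusted p = 0.000293). Zfp423, a factor of preadipocyte commitment, averaged 10.8 ± 3.02 CPM at day 1 and 16.4 ± 2.31 CPM in untreated samples (SD, n = 5 each; log2 change -0.55 ± 0.21, adjusted p = 0.032). That call was lost without any of 6 single libraries, with a highest adjusted p of 0.106 over the alternatives. Of 10 tested members that act on RNA, Zfp593 rose at day 1, and Zfp638 and Zfp106 fell. Zfp638, whose human counterpart silences unintegrated retroviral DNA, also fell at day 3, with 9.44 ± 1.85 CPM, against 17.8 ± 5.13 CPM in untreated samples (SD, n = 5 each; log2 change -0.92 ± 0.24, adjusted p = 0.0103). Zfp598, the ubiquitin ligase that senses collided ribosomes, and Zfp207, a spindle and splicing factor, were called on neither day; Zfp207 was called lower at day 3 in a fit of the compared groups alone (adjusted p = 0.0338), and lower at day 3 than at day 1 without day 1 replicate 1 (adjusted p = 0.0185).

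Of 16 tested members known as chromatin or promoter factors, Zfp131 rose at day 1 and Zfp91, Zfp148 and Zfp592 fell, and Zfp217 and Zfp281 fell at day 3. The call of Zfp131 was lost without any of 6 single libraries and under total-count scaling (adjusted p up to 0.173), and that of Zfp148 without any of 7 single libraries, day 1 replicate 1 among them, and in DESeq2 (up to 0.113). That of Zfp217 was lost without untreated replicate 5 or day 3 replicate 4 (up to 0.0687). Zfp143, whose binding core is printed above, averaged 5.91 ± 1.26 CPM at day 1, 3.84 ± 1.41 CPM at day 3 and 4.87 ± 1.39 CPM in untreated samples (SD, n = 5 each) and was not called. Of 3 tested members linked to the DNA damage response, Zfp385a, Zfp110 and Zfp365, none was called on either day or between the days. None of the 3 had an unadjusted p under 0.05 in edgeR in any of the 3 comparisons, and DESeq2 called none. Under total-count scaling Zfp385a was called lower at day 1 (adjusted p = 0.00313, with up to 0.315 over its other alternatives).

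Between the 2 times, 8 Zfp genes were higher at day 3 than at day 1 and 19 were lower, or 4.97% and 11.8% of the 161 tested, beside 16.1% and 16.6% of all tested genes, of which 32.7% were called in either direction. With libraries scaled by their totals alone the Zfp counts were 11 higher and 13 lower, beside 22.6% of all genes higher and 11.8% lower. The median log2 change was -0.14 for Zfp genes and 0.01 for all genes, and groups did not overlap for 15 Zfp genes, 9.32% of those tested, beside 20.6% of all genes. Zfp704 was higher at day 3, with 6.21, 8.91, 4.54, 5.57 and 7.20 CPM, against the day 1 values above, which it did not overlap (log2 change 1.87 ± 0.38, adjusted p = 0.000697). Zfp592 (1.13), Zfp580 (0.86), Zfp422 (0.78), Zfp91 (0.75), Zfp664 (0.72), Zfp106 (0.68) and Zfp423 (0.63) were the others higher at day 3 on the log2 scale. Without day 1 replicate 4 the 8 rises became 4 of 172 tested, with Zfp91, Zfp106, Zfp422 and Zfp423 no longer called. All genes then had 1377 rises of 10376.

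The falls between the times included members that had been high at day 1. Zfp771 had 48.1, 52.9, 80.7, 59.3 and 67.2 CPM at day 3, against 218.9, 103.4, 85.6, 133.1 and 134.5 CPM at day 1. The groups did not overlap, with the highest day 1 value in replicate 1, and the log2 change was -1.11 ± 0.20 (adjusted p = 0.000204). Zfp281 had the largest fall, at -1.78 ± 0.31 (adjusted p = 0.00015). The other large falls were Zfp691 (-1.27), Zfp276 (-0.98), Zfp710 (-0.97), Zfp809 (-0.95), Zfp131 (-0.91) and Zfp579 (-0.82) on the log2 scale. The call of Zfp131 was lost without day 1 replicate 4 (adjusted p = 0.0531).

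The partners of KRAB proteins outside the name group were counted from a list of 31 genes in the table. At day 1, 4 of the 27 tested rose and 8 fell, beside 23.1% of all genes in each direction, and at day 3, 1 rose and 4 fell, beside 9.2% higher and 9.25% lower. Trim28 had 143.3, 102.9, 127.5, 111.8 and 94.5 CPM at day 1, against 71.5, 88.5, 75.5, 99.1 and 98.7 CPM in untreated libraries. The groups overlapped, and the log2 change was 0.41 ± 0.15 (adjusted p = 0.0263), a call lost under total-count scaling (adjusted p = 0.464) and without any of 3 single libraries. Daxx, a chaperone of histone H3.3, rose most, with 158.3 ± 45.9 CPM at day 1 and 24.7 ± 5.05 CPM in untreated samples (SD, n = 5 each; log2 change 2.67 ± 0.20, adjusted p = 8.11e-10), and Atf7ip, the partner of SETDB1, rose by 1.12 ± 0.19 on the log2 scale (adjusted p = 6.87e-05). Dnmt1, the maintenance DNA methyltransferase, was the other rise at day 1, at 0.99. The falls at day 1 were Cbx5, Hdac2, Rbbp7, Gatad2a, Gatad2b, Mphosph8, Pphln1 and Tasor, of which the last 3 encode the HUSH silencing complex. Mphosph8 (-0.81) and Tasor (-0.997) also fell at day 3 on the log2 scale, as did Cbx5 (-0.73), an HP1 protein, and Gatad2b (-0.79), a NuRD subunit, while Morc2a, which works with HUSH, rose (0.88). The rise of Morc2a was lost without any of 8 single libraries (adjusted p up to 0.14), and the day 1 falls of Mphosph8, Pphln1, Rbbp7, Gatad2a and Tasor without any of 6, 5, 3, 3 and 1. At day 3 those of Mphosph8, Gatad2b and Tasor were lost without any of 3, 2 and 1 single libraries. Setdb1 averaged 11.2 ± 2.42 CPM at day 1, 10.4 ± 2.69 CPM at day 3 and 15.5 ± 2.97 CPM in untreated samples (SD, n = 5 each) and was not called.

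The counting limits some of these values. In 20 members, 9 of them tested, more than 20% of the 3'-terminal 40-base words also occur in another gene. A gene on the other strand overlaps 93 members, among them Zfp703, Zfp593, Zfp704, Zfp800, Zfp74 and Zfp580, and whether the authors counted by strand is not given in the sources used here. Among the members that overlap another annotated gene on their own strand are Zfp91, Zfp580, Zfp809, Zfp592, Zfp445, Zfp800, Zfp638, Zfp276 and Zfp865.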

How the data were processed

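Thymic tissue was dissociated enzymatically and the sorted cells were lysed for RNA, per the labels' protocols. Reads were handled with STAR 2.5.2b, HTSeq, cutadapt, bcl2fastq and DESeq2 on mm10, per the submitters' processing notes. The deposited table held raw UMI counts, which the authors had not scaled; 30 other columns of per-sample values were not used. The members and lists were chosen with earlier results of these data known.

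Counts of all 12763 genes in 15 libraries were filtered with filterByExpr (minimum count 10), which kept 10207, scaled with TMM and fitted in edgeR 4.0.16 (R 4.3.3, limma 3.58.1) by a robust quasi-likelihood model with group as factor. The common biological coefficient of variation was 0.201. P-values were adjusted by Benjamini-Hochberg over all genes tested, with a threshold of 0.05. The fit was tested on simulated counts first. Library totals ran from 740169 to 3750214 UMIs.

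Named genes were, per comparison, up to 8 rises and 8 falls of largest log2 change among called members with at least 5 CPM in a group, the 8 highest members, and the role lists; members of the chromosome 7 array and Zfp180 were named after their values were seen. Fingers, KRAB and SCAN boxes were found by patterns in proteins translated from GENCODE vM21. The first KRAB pattern, searched in the longest protein of each gene, found 97 members. A wider pattern was added after seeing the proteins, and a match of either pattern in any protein-coding transcript raised this to 133. Motifs were chosen after seeing the data. Tables were made in Python 3.11.15 with numpy 2.4.6 and pandas 2.3.3. Alternatives were DESeq2 1.42.0, RLE or total-count scaling, other filters, only the compared groups, a replicate block and leaving out each library; for KRAB members they were added after seeing the data.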

Additional observations from a re-analysis of the deposited data

Results flagged for a closer look

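Of 216 groups of 5 values examined, 25 (11.6%) had 1 library whose gap to the nearest other exceeded Dixon's 95% limit. About 1 in 20 groups of independent normal values pass that limit by chance. Low counts are not normal and some flags repeat each other, so the rates are not directly comparable.

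Day 1 replicate 1, the smallest library, was the outlying one 7 times. Zfp703 had 333.9 CPM there, against 134.1 to 163.4 CPM in the other day 1 libraries. In the same library Zfp106 had 50.4 CPM (others 18.8 to 22.2), Zfp598 had 96.1 CPM (38.0 to 53.8) and Zfp335 had 34.6 CPM (9.19 to 15.7). It was low for Zfp131, at 9.45 CPM (40.03 to 49.48), and for Zfp943, at 0 CPM (3.93 to 5.44). At equal depth 184 members had a UMI in it, against 226 to 237 in the other day 1 libraries.

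Untreated replicate 1 stood apart for Zfp704 at 3.40 CPM, Zfp943 at 20.4 CPM, Zfp503 at 134.4 CPM, Zfp467 at 43.4 CPM and Zfp644 at 7.66 CPM. Untreated replicate 5 did so for Zfp593 at 12.3 CPM, Zfp91 at 12.8 CPM, Zfp638 at 8.94 CPM and Zfp57 at 0.426 CPM, where the others had 0. Untreated replicate 4 was lowest for Zfp36 at 1338 CPM, and so for the summed Zfp level at 4547 CPM and for its share of UMIs at 0.509%. Untreated replicate 3 was high for Zfp691 at 8.27 CPM.

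Among the other libraries, day 1 replicate 3 was high for Zfp91 at 14.1 CPM, day 3 replicate 1 was high for Zfp865 at 11.5 CPM and low for Zfp385b at 0.621 CPM, day 3 replicate 2 was high for Zfp708 at 1.08 CPM, and day 3 replicate 5 was low for Zfp263 at 8.92 CPM.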

How the results depend on the processing

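No named member reversed a called direction under any alternative run. Of 59 named members tested, 25 of 32 day 1 calls, 10 of 14 day 3 calls and 12 of 19 calls between the times were kept in every alternative. With total-count scaling, 13 Zfp genes rose and 53 fell at day 1, and the median of all genes moved to -0.29 at day 1, -0.13 at day 3 and 0.15 between the times, while the KRAB median lay 0.32 below that of all genes at day 1 and 0.45 below at day 3 (-0.324 and -0.446). Fitting only the compared groups gave 6 rises and 27 falls of 158 tested at day 3, beside 1298 higher and 1243 lower of all 9852 genes. Without 1 library in turn, rises ranged from 17 to 24 and falls from 20 to 30 at day 1. Rises ranged from 1 to 3 and falls from 16 to 20 at day 3, and from 4 to 10 and 14 to 22 between the times. Over all genes the same fits gave 2128 to 2445 higher and 2110 to 2383 lower at day 1. They gave 624 to 1010 and 649 to 1061 at day 3, and 1377 to 1732 and 1427 to 1815 between the times. The cause of these shifts was not tested. Same-numbered libraries did not deviate together (correlations -0.352 to 0.166), and the replicate block gave 20 rises and 23 falls at day 1, 3 and 20 at day 3, with Zfp36l1 among the rises, and 8 and 19 between the times. The block gave 2246 and 2265 of all 10207 genes at day 1, 798 and 798 at day 3, and 1544 and 1558 between the times. With no filter 22 of 268 members rose and 42 fell at day 1, beside 2633 and 2671 of all 12763 genes. DESeq2 gave 22 and 26 at day 1, 3 and 21 at day 3, and 8 and 21 between the times. Over all 10207 genes it gave 2448 and 2336, 1050 and 1077, and 1636 and 1821. For KRAB members, no filter gave 24 falls of 133 at day 1 and 17 at day 3, beside 2671 and 1026 of all 12763 genes. Total-count scaling gave 21 and 15 of 54, beside 3652 and 1442 of all 10207 genes. Depth limits the 107 members under the filter and members of a few CPM.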
